A study of Mus musculus with 4 samples.

Results

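Nonclassical monocytes, also called patrolling monocytes, are blood monocytes that crawl along the inner wall of vessels, clear particles and damaged endothelial cells, and depend on the transcription factor Nr4a1. They arise largely from classical monocytes, which leave the blood for inflamed tissue. In this data set they were 8844 of 53380 cells, of which the control library held 3133. The libraries taken 12, 24 and 96 h into acute pancreatitis held 2125, 2459 and 1127. The cells were chosen by a rule on their unique molecular identifiers (UMIs), each of which stands for 1 captured transcript. A member had at most 10% mitochondrial UMIs, at least 5000 Lyz2 UMIs per 1000000 UMIs of the cell (CPM), at least 1 Csf1r UMI, at most 1 UMI over Cd3e, Cd3d and Cd3g and at most 1 of Cd79b. It also had less than 8% of its UMIs in S100a8 and S100a9, at most 2 over Gpnmb, C1qa, C1qb and Apoe, and at most 1 over Mki67, Top2a, Birc5 and Cdk1. Last, it had more UMIs over Spn, Pou2f2 and Adgre4 than over Fn1 and Vcan. These 21 genes selected the cells and are therefore described without being counted among the results.

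Mononuclear cells were isolated from peripheral blood on a density gradient and their transcripts were counted cell by cell in droplets from the 5′ end. All libraries came from wild-type C57BL/6J mice of 6 to 8 weeks of age. Pancreatitis was brought on by 7 intraperitoneal injections of cerulein, a cholecystokinin analogue that overstimulates the acinar cells of the pancreas. The control library stands for 0 h, the libraries at 12 and 24 h for the initial phase and the last library, labelled 96 h, for recovery. The design text puts that last time point at 168 h. There was 1 library for each time, and the number of mice behind a library is not given in the labels. No difference between times therefore has a replicate check, no p-value is given, and every interval below covers counting error only.

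Values given 4 at a time are in the order control, 12 h, 24 h and 96 h. The members held 11802692, 8905001, 12634455 and 5256632 UMIs. The median member had 3532, 3801, 4456 and 4286 UMIs, and 1381, 1491, 1617 and 1585 detected genes. Scrublet marked between 0.511% and 1.22% of the members as doublets. The barcode list of the control library named 4340 barcodes for 14569 cells, and the list of 24 h was identical to that of 12 h, so cells were taken from the columns of each matrix. No member of one library had the same counts as a member of another (0 pairs). The files list 16152 gene names, of which 28 begin with RT1-, the prefix of the rat major histocompatibility complex, and 0 with H2-, the prefix used in mouse. Names are given here as the files spell them. Reads of RT1- genes with similar sequences can be assigned to one another, which was not examined here.

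The last term of the rule divided Csf1r-bearing monocytes. Members that passed it by 1 UMI made up 4.37%, 7.2%, 4.88% and 3.19% of each library's members. Members that passed it by at least 4 UMIs made up 81.0%, 73.3%, 79.3% and 86.8%. Just outside, 75, 117, 100 and 30 cells were tied and met every other term. The Lyz2 term admitted 76, 64, 45 and 30 cells that passed it by up to 1000 CPM, and turned away 55, 34, 25 and 32 that missed it by up to 1000 CPM and met every other term.

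The label was set beside 29 measured nonclassical monocyte genes that the rule did not use. Beside the classical monocytes of the same library, 22 of them were higher in each of the 4 libraries, 2 were lower in each and 5 were neither. The rule divided the same cells, so these counts are a description. The share of all genes higher in each library is not given here. Nr4a1 had 613, 356, 519 and 581 CPM. Classical monocytes were taken by the same rule but with more UMIs over Fn1 and Vcan than over Spn, Pou2f2 and Adgre4. They had 396, 135, 240 and 203 CPM of Nr4a1, and tied cells were in neither class. Eno3, a muscle-type enolase that marks nonclassical monocytes, stood at 458, 281, 310 and 402 CPM. Eno3 in classical monocytes lay between 20.7 and 45.9 CPM, and in cells chosen by B cell genes between 4.89 and 9.97 CPM. Cx3cr1, the fractalkine receptor that nonclassical monocytes need for survival, went from 69.6 CPM to 64.9, 60.3 and 72.9. Itgal, the integrin chain with which they crawl along vessel walls, had 74.1, 86.2, 69.6 and 82.6 CPM. In every library these 4 genes were highest in the nonclassical cells among those 3 classes. Other genes of the list went against the label. Lst1, a small membrane protein of leukocytes, was at 0.733, 0.863, 0.755 and 0.652 times the classical level. Cd300e, an activating receptor of monocytes, had 17.9, 20.1, 22.7 and 12.7 CPM, beside 42.0, 17.9, 40.9 and 61.1 in classical monocytes. The markers given for the cells were all measured, and Csf1r, the receptor for the growth factor that maintains monocytes, stood at 1480, 1226, 1409 and 1472 CPM.

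**Figure D1:**
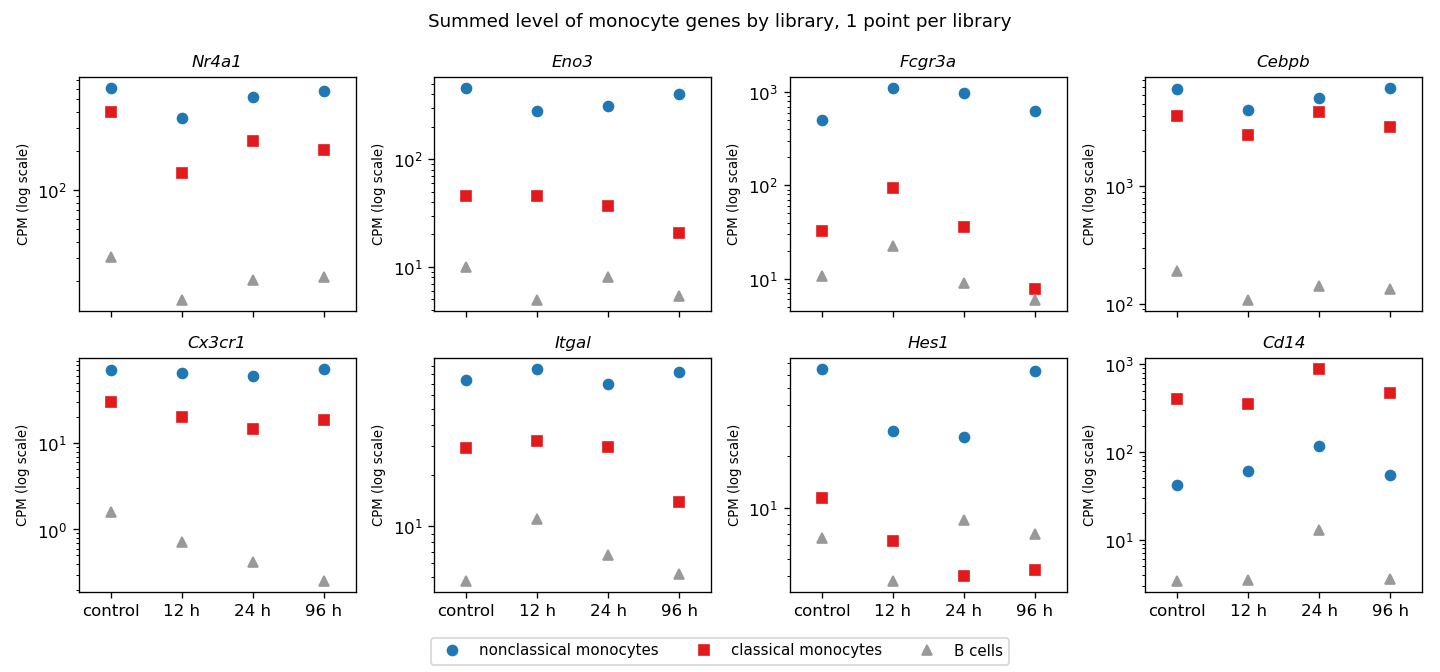
Summed level, in CPM on a log scale, of 8 monocyte genes in nonclassical monocytes (circles), classical monocytes (squares) and B cells (triangles), with 1 point per library. Nr4a1, Eno3 and Fcgr3a lie above the classical monocytes in each library, while Cd14 lies below them, at 42.2 to 116 CPM.

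Nonclassical and classical monocytes of the same library were set side by side over 2401 genes. In each of the 4 libraries 131 of them had a level in nonclassical cells at least 2 times the classical one, and 53 a level at most 0.5 times it. These ratios follow from the term that divides the cells and are a description. Fcgr3a, an activating receptor for IgG, was 15.4, 11.9, 27.1 and 81.2 times the classical level. Pmp22, a membrane protein of cell junctions, was 15.7, 9.48, 11.2 and 58.6 times as high. Tcf7l2, a transcription factor of the Wnt pathway, was 5.31, 4.82, 4.65 and 10.0 times as high. At the other end, Rnase2, a secreted ribonuclease, was at 0.00692, 0.0159, 0.0317 and 0.0113 times the classical level. Fcnb, Hp and Lgals1 were also among the 10 genes that stood lowest beside classical cells.

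Nonclassical monocytes were a smaller share of the blood mononuclear cells at every time of pancreatitis than in the control library. They made up 25.95% of the cells within the mitochondrial limit in the control library (exact binomial 95% interval 25.2 to 26.7%), 19.3% at 12 h (18.5 to 20.0%), 21.6% at 24 h (20.9 to 22.4%) and 8.31% at 96 h (7.85 to 8.79%). The share at 12 h was 0.743 times the control share (0.702 to 0.785), that at 24 h 0.833 times (0.790 to 0.879) and that at 96 h 0.320 times (0.299 to 0.343). Among cells with the Lyz2 and Csf1r terms alone they fell from 74.0% to 56.6%, 50.5% and 51.0%. On that denominator the low value at 96 h was close to that at 24 h. Over the same libraries classical monocytes went from 480 cells to 809, 1505 and 635, and cells chosen by T cell genes from 22.6% of kept cells to 15.5%, 17.1% and 36.7%. Counts of cells per volume of blood were not used here, so fewer nonclassical monocytes and more of the other cells cannot be told apart.

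**Figure D2:**
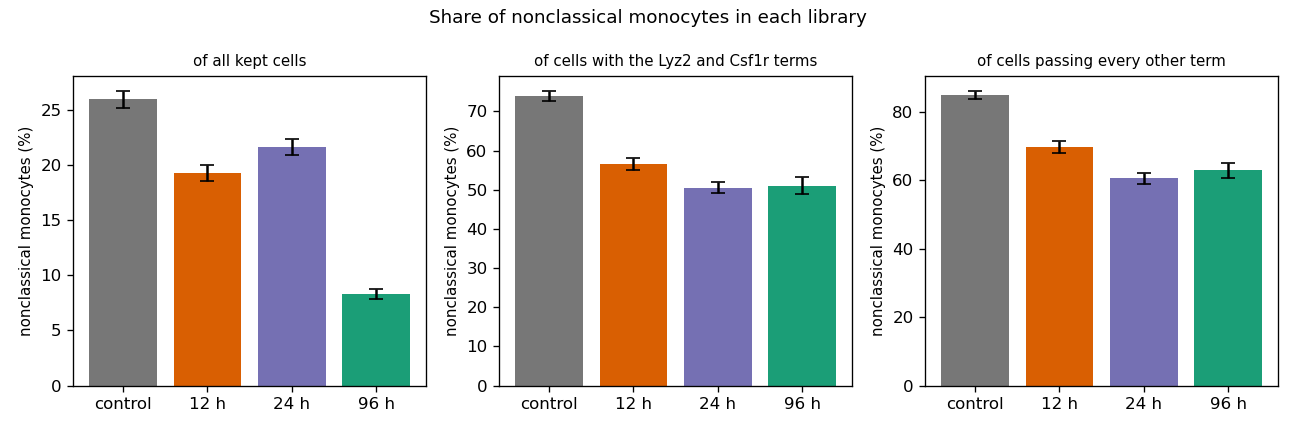
Nonclassical monocytes as a percentage of all kept cells (left), of cells with the Lyz2 and Csf1r terms (middle) and of cells passing every other term of the rule (right), with exact binomial 95% intervals. The control library is highest in each panel, and the bar of 96 h is far below the others only against all kept cells, at 8.31%.

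Droplets also carry free RNA of other cells, which can add to any level. S100a8, a neutrophil and classical monocyte protein that the rule limited, stood at 8.47, 522, 413 and 162 CPM in the members, and at 8.36, 627, 371 and 30.5 CPM in B cells, which do not make it. At 96 h the summed level was higher in the members, but 5.32% of them and 6.42% of B cells carried an S100a8 UMI at equal depth (11.1% and 10.8% of all cells). The higher sum at 96 h thus came with no larger share of cells at equal depth. The 14 T and NK cell genes summed to 87.1, 216, 77.1 and 188 CPM in the members. They summed to 348 to 494 CPM in B cells, but to 88.5, 149, 71.1 and 129 CPM in classical monocytes. Of the T and NK genes compared, 6 of 7 were at least 1.5-fold higher at 12 h, 0 of 5 at 24 h and 6 of 6 at 96 h, and Cd5 or Tcf7 stood at 0 UMIs in each library. The 11 neutrophil genes summed to 104 to 153 CPM, led by Csf3r, which monocytes also express, with Mpo at 0 UMIs in the control library and at 12 and 96 h. Of the neutrophil genes compared, 1 of 3 was higher at 12 h, 2 of 3 at 24 h and 3 of 4 at 96 h, where Ngp, a neutrophil granule protein, stood at 25.5 CPM beside 1.504 in B cells. The 10 platelet genes summed to 10.8, 54.9, 30.3 and 2.47 CPM, the 7 erythroid genes to 59.0, 125, 34.8 and 77.0 CPM, and the 10 B cell genes to 124, 178, 67.0 and 77.6 CPM. The 12 dendritic cell genes summed to 76.2 to 104 CPM with Xcr1 and Cd209a at 0 UMIs in every library, the 8 endothelial genes to 24.1 to 52.1 CPM and the 6 acinar genes to less than 1 CPM. The part of RNA from other cells in the results below was not tested, and levels in B or T cells are given where they bear on a value. Shares of cells with a UMI are given at equal depth, after each cell was thinned to 2000 UMIs, which left out 110, 23, 41 and 17 shallower members, and then over all members as deposited. The median B cell had 2828, 3053, 3210 and 3331 UMIs.

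For each time, the summed level of a gene in the members was set against that in the members of the control library. Genes entered with at least 10 CPM in either library and 50 UMIs over both, and a gene was called higher or lower at a 1.5-fold difference. At 12 h 272 of 6304 genes were higher (4.31% of those compared) and 215 lower (3.41%). At 24 h 213 of 6174 were higher (3.45%) and 320 lower (5.18%). At 96 h 120 of 6190 were higher (1.94%) and 88 lower (1.42%). The median gene moved by 0.08, -0.02 and 0.02 on the log2 scale. The 3 comparisons share the control library, so an unusual level there would enter all of them. In the classical monocytes of the same libraries, 146 of the 222 genes that were higher at 12 h in the members and could be compared were higher too. Among the 320 genes lower at 24 h, 196 of the 245 that could be compared in classical monocytes were lower there as well, 74 of 232 in B cells and 76 of 200 in T cells. The share of all genes called in those classes is not given here, so these overlaps are a description.

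The members at 12 h had lower levels of genes that cells switch on within minutes of a stimulus. Of 23 immediate early genes compared, 17 were lower and 0 higher, and their median log2 ratio was -0.74. Jund, a subunit of the transcription factor AP-1, stood at 396, 142, 256 and 365 CPM. Its 12 h level was 0.359 times the control level (95% interval 0.337 to 0.382). Dusp1, a phosphatase that switches off MAP kinases, went from 2823 CPM to 1575, 3079 and 2747. Ppp1r15a, which restarts translation after stress, had 165, 64.1, 168 and 153 CPM. Both were low at 12 h only, and at 24 and 96 h lay within 1.5-fold of the control. Nr4a1 belongs to the same list and at 12 h stood at 0.581 times the control level (95% interval 0.557 to 0.606), still above the 135 CPM of classical monocytes at that time. Egr1 had the smallest ratio of the list, 0.225 times the control level (95% interval 0.175 to 0.287). In the control library 3.24% of the members carried an Egr1 UMI at equal depth, fewer than the 8.23% of B cells (5.33% and 11.4% of all cells). The part of free RNA in the Egr1 level was not tested. At 24 h 6 of 24 genes of the list were lower and 0 higher, and at 96 h 3 were higher and 0 lower, with 1 to 3 higher over the 10 alternatives. Fos, another AP-1 subunit and 1 of these 3, stood at 227, 136, 294 and 368 CPM. B cells carry Jund too, and theirs stood at 428, 295, 261 and 509 CPM.

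Genes that NF-kB induces to limit its own activity were lower at 12 h too. Of 22 compared, 9 were lower and 1 higher, with a median of -0.42, against 3 lower and 1 higher at 24 h and 0 of either at 96 h. Nfkbiz, an inhibitor-like nuclear partner of NF-kB, went from 288 CPM to 138, 266 and 228. Rel, an NF-kB subunit, had 98.5, 49.97, 57.9 and 95.9 CPM. Nfkbia, the main cytoplasmic inhibitor, stood at 2784, 1885, 2490 and 2378 CPM, which at 12 h is 0.677 times the control level (95% interval 0.664 to 0.6896) and just inside the 1.5-fold limit. Irf1, a transcription factor downstream of interferon and NF-kB, stood at 231, 91.4, 100 and 179 CPM. Its level was low at 12 and at 24 h. Cd83 had the smallest ratio of the list at 12 and 24 h, with 42.5, 15.2, 9.74 and 32.7 CPM, while B cells carried 354 to 545 CPM. Whether free B cell RNA sets these Cd83 values was not tested.

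Sterol and lipid synthesis genes, which cells raise when membrane cholesterol runs low, were lower at 12 and 24 h, and none was past 1.5-fold at 96 h. The counts were 11 of 18 lower at 12 h, 9 of 18 at 24 h and 0 of 19 at 96 h, with 0 higher at each time. The median log2 ratios were -0.81, -0.67 and 0.09. Idi1, an isomerase of the pathway, went from 40.2 CPM to 16.3, 20.6 and 47.4. Hmgcs1, which makes the precursor of mevalonate, had 34.7, 17.4, 16.1 and 38.05 CPM. Insig1, which holds the sterol sensor back, stood at 62.9, 25.7, 33.9 and 68.7 CPM. In B cells Insig1 went from 85.9 to 32.1, 33.2 and 74.4 CPM. Srebf2, the transcription factor that drives the pathway, went from 154 CPM to 112, 80.5 and 120.

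The 8 genes that rose most at 12 h, ranked by the interval bound nearest to 1, were Rgs1, Prg4, Upp1, Gzmk, Ca5b, Scimp, Pon3 and Capg. Rgs1, a brake on signals from chemokine receptors, had 169, 647, 1021 and 268 CPM. That is 3.82 times the control level (95% interval 3.63 to 4.02) at 12 h and 6.02 times the control level (95% interval 5.75 to 6.32) at 24 h. Members with a Rgs1 UMI at equal depth went from 20.3% to 59.6%, 71.4% and 29.5% (28.9%, 74.8%, 84.1% and 42.1% of all members). The shares at equal depth were 4.79 to 6.95% in B cells, and 5.46%, 42.1%, 12.9% and 4.27% in classical monocytes. Rgs1 in classical monocytes went from 26.4 CPM in the control library to 323 at 12 h and 98.1 at 24 h. Prg4, a lubricating glycoprotein, stood at 26.3, 91.3, 91.4 and 26.6 CPM. Pon3, a lactonase carried by lipoproteins, went from 38.7 CPM to 110, 110 and 61.3. Both were higher at 12 and 24 h, and Pon3 in B cells did not exceed 1.55 CPM. In classical monocytes Pon3 went from 15.6 CPM in the control library to 68.0 at 12 h, and Prg4 from 109 to 111. Capg, which caps actin filaments, had 116, 306, 252 and 126 CPM. Scimp, an adaptor of antigen-presenting cells, stood at 22.1, 66.5, 76.8 and 17.7 CPM. Gzmk, a granzyme of lymphocytes, went from 22.5 CPM to 73.9, 21.1 and 57.6. In the control library and at 12 h B cells had 130 and 166 CPM of Gzmk, and classical monocytes 18.0 and 35.6 CPM. Among members with 0 UMIs of the T and NK list the Gzmk ratio at 12 h was 1.67 in place of 3.29.

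The 8 genes that fell most at 12 h were Arl5b, Jund, Csrnp1, Cdc42ep4, Tob1, Ppp1r15a, Irf1 and Sirpd. Arl5b, a small GTPase of the Golgi, had 62.5, 18.8, 50.3 and 66.01 CPM. Tob1, which restrains proliferation and promotes mRNA decay, stood at 108, 40.5, 66.96 and 91.9 CPM. Cdc42ep4, an effector of the GTPase Cdc42, went from 168 CPM to 59.6, 107 and 126. Csrnp1, a nuclear protein induced by stress signals, had 58.04, 18.98, 41.00 and 50.6 CPM. Sirpd, a member of the signal-regulatory protein family, stood at 141, 56.1, 133 and 217 CPM. For these 5 genes 12 h was the lowest of the 4 libraries.

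**Figure D3:**
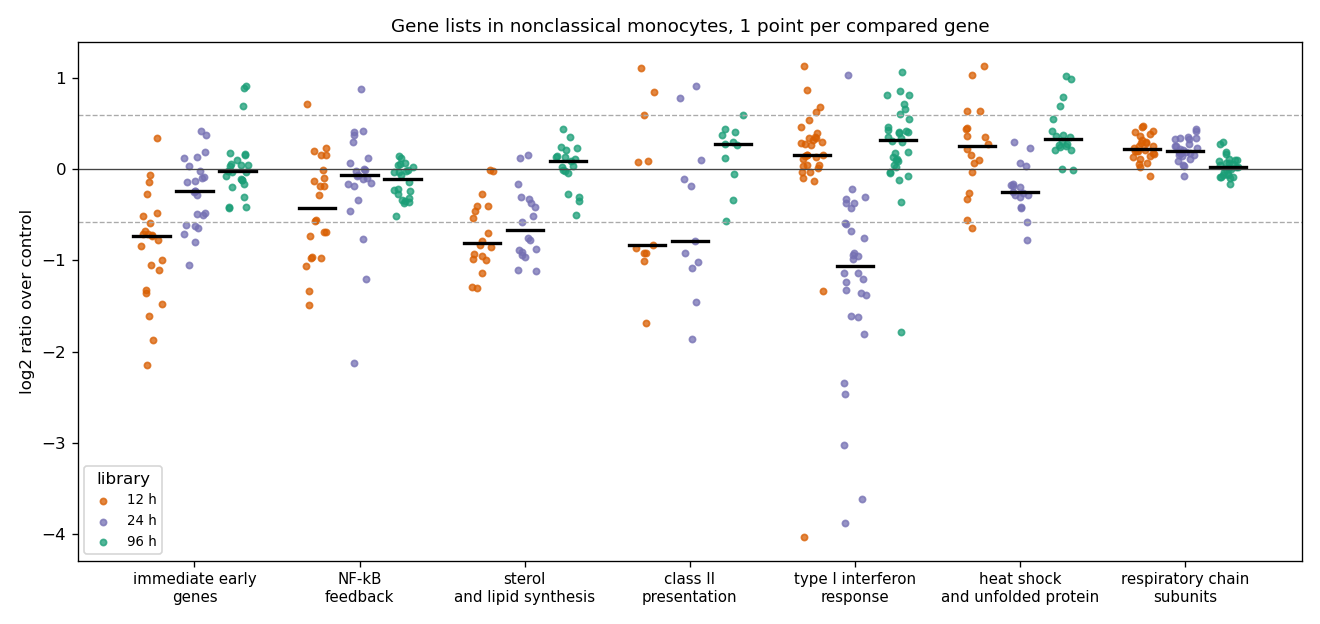
log2 ratio over the control library of each compared gene of 7 lists at 12, 24 and 96 h in nonclassical monocytes, with black bars at the list medians and dashed lines at 1.5-fold. Immediate early and sterol genes lie mostly below the lower line at 12 h and the type I interferon genes at 24 h, where their median is -1.07.

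At 24 h the response to type I interferon, the cytokine that prepares cells against viruses, was lower across most of its genes. Of 30 compared, 23 were lower and 1 higher, and their median log2 ratio was -1.07. At 12 h 2 of 31 were lower and 4 higher, and at 96 h 1 of 32 was lower and 7 higher. The 10 alternatives gave 2 to 4 higher genes at 12 h, and 6 to 10 at 96 h. Mx1, an antiviral GTPase, went from 108 CPM to 142, 13.3 and 170. The 24 h level was 0.123 times the control level (95% interval 0.104 to 0.144), and that at 96 h 1.57 times the control level (95% interval 1.44 to 1.71). Irf7, the transcription factor that amplifies the response, had 89.5, 99.7, 16.2 and 118 CPM. Ifit3, which holds viral RNA back from translation, stood at 184, 220, 36.2 and 321 CPM. Members with an Ifit3 UMI at equal depth made up 20.4%, 25.4%, 7.65% and 30.9% (28.7%, 37.4%, 12.6% and 44.1% of all members), against 0.491 to 2.02% of B cells. Isg15, a small protein attached to others during the response, went from 58.1 CPM to 70.3, 16.5 and 102. Mx2, with the smallest ratio of the list, had 37.2, 41.3, 2.53 and 42.2 CPM. B cells had more Mx2 in each library, with 48.7, 53.1, 14.2 and 70.6 CPM. For all 5 genes 24 h was the lowest library and 12 h lay within 1.5-fold of the control.

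Slfn4 and Ly6e, other interferon-induced genes, were lowest at 24 h as well. Slfn4, a member of the Schlafen family of myeloid cells, stood at 1031, 1077, 248 and 926 CPM. It is not in the list. Ly6e, a membrane protein that limits viral entry, went from 744 CPM to 729, 241 and 796. Oas1a, which senses viral RNA, was the 1 gene of the list higher at 24 h and was higher at each time, with 12.0, 26.3, 24.6 and 25.1 CPM. The other cell classes carry these genes as well. Mx1 in classical monocytes went from 60.3 CPM in the control library to 4.29 at 24 h, in B cells from 117 to 53.3 and in T cells from 128 to 85.9, while Ly6e in B cells went from 780 to 811. The difference between the classes was not tested.

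Class I genes, which present peptides to CD8 T cells and respond to interferon, were lower in part at 24 h. Of 23 compared, 5 were lower and 1 higher at 24 h, 2 lower and 1 higher at 12 h, and 1 lower and 0 higher at 96 h. RT1-S3 had 335, 315, 129 and 405 CPM. RT1-T24-3, which belongs to the genes that fell most at 24 h but not to the list, stood at 366, 405, 151 and 564 CPM. RT1-A1 went from 2072 CPM to 1359, 1123 and 1363. RT1-A1 was low at all 3 times, at 0.656, 0.542 and 0.658 times the control. At 96 h it was inside the 1.5-fold limit as the mean of the CPM per cell, at 0.669, and among members with 0 UMIs of the T and NK list, at 0.682. Tap1, which pumps peptides into the endoplasmic reticulum, had 157, 113, 89.1 and 132 CPM. B2m, the light chain shared by class I molecules, was within 1.5-fold throughout, between 10836 and 12428 CPM.

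Class II genes, which present antigen to CD4 T cells, were lower at 12 and 24 h. Of 11 genes of class II presentation compared, 6 were lower and 3 higher at 12 h, 6 lower and 2 higher at 24 h, and 0 lower and 1 higher at 96 h. The median log2 ratios were -0.84, -0.79 and 0.27. Cd74, the invariant chain that guides class II molecules, stood at 2196, 1160, 797 and 2111 CPM. RT1-Da, a class II alpha chain, went from 722 CPM to 359, 340 and 887. RT1-Bb, a class II beta chain, had 193, 59.7, 53.2 and 130 CPM. T cells, which make little of these, had 100 to 284 CPM of Cd74 and 59.0 to 197 CPM of RT1-Da. These T cell levels were below those of the members in every library. Ifi30, a thiol reductase that prepares antigens in lysosomes, moved the other way and stood at 179, 386, 307 and 270 CPM. Cd40, a costimulatory receptor, went from 28.6 CPM to 51.3, 53.6 and 38.6. B cells carry more of both, with 1041 to 1425 CPM of Ifi30 and 129 to 145 CPM of Cd40. Classical monocytes with a RT1-Da UMI at equal depth made up 48.5%, 19.5%, 10.9% and 27.2% (68.96%, 41.9%, 28.2% and 53.9% of all cells). Cd74 in the members was at 0.709, 1.996, 2.44 and 1.93 times the classical level, and RT1-Da at 0.483, 1.67, 2.55 and 1.81 times. Both were thus below the classical level in the control library and above it at each later time. Ifi30 stayed below it in each library. The difference between the classes was not tested.

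Class II levels also varied between members within each library. At 2000 UMIs per cell, 77.7%, 59.0%, 40.2% and 61.4% of the members carried a Cd74 UMI (88.2%, 73.8%, 58.2% and 79.1% of all members). For RT1-Da the shares were 37.2%, 23.5%, 14.1% and 27.1% (51.2%, 36.3%, 25.6% and 45.0%). The variance of Cd74 UMIs was 7.74, 6.17, 8.44 and 13.2 times their mean, where the median of 2072 genes was 1.04 in each library. Members that passed the last term by 1 UMI had 3277 CPM of Cd74 in the control library and 6025 at 96 h, and those that passed it by at least 4 UMIs had 1944 and 1582. At 96 h the class II list therefore depends on which members are counted. Its median was 0.27 over all members, -0.13 among those with a margin of at least 4 UMIs and -0.37 when cells were thinned to 2000 UMIs. At 12 and 24 h, 6 of 11 genes were lower under each of the 10 alternatives run.

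The 8 genes that rose most at 24 h were Fkbp5, Fcgr2b, Rgs1, Lpl, Retn, Clec10a, Cd63 and Ehd1. Fkbp5, a co-chaperone of the glucocorticoid receptor that glucocorticoids induce, had 8.98, 32.3, 120 and 14.8 CPM. That is 13.4 times the control level (95% interval 10.98 to 16.4) at 24 h. It rose in the other classes as well, from 15.9 to 104 CPM in classical monocytes, from 11.7 to 37.6 in B cells and from 27.5 to 95.2 in T cells. Of 14 glucocorticoid induced genes compared, 4 were higher and 2 lower at 24 h, against 3 higher and 4 lower at 12 h and 2 higher and 0 lower at 96 h, a count that was 0 to 2 over the 10 alternatives. Mt2A, a metal-binding protein, stood at 12.6, 15.3, 41.9 and 10.8 CPM. Sgk1, a kinase of the same list, was lower at 12 and 24 h, with 36.9, 17.7, 21.1 and 27.6 CPM. The list did not move as one, with median log2 ratios of -0.06, 0.21 and 0.04.

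Lpl, the lipase that frees fatty acids from lipoproteins, went from 11.9 CPM to 5.28, 67.99 and 5.897. It was high at 24 h alone and below the control at 12 and 96 h. Retn, the secreted protein resistin, had 22.6, 41.1, 120 and 21.3 CPM. Neither was above 1.27 CPM in B cells. In classical monocytes Lpl went from 1.80 CPM in the control library to 17.1 at 24 h, and Retn from 3.30 to 30.5. Cd63, a tetraspanin of lysosomes, stood at 13.6, 16.96, 65.1 and 21.5 CPM. Ehd1, which returns receptors to the cell surface, went from 86.00 CPM to 109, 305 and 155. Fcgr2b, the inhibitory receptor for IgG, had 9.998, 28.1, 72.03 and 24.9 CPM. B cells, which express it, had 52.5 to 83.8 CPM. Clec10a, a lectin found on classical monocytes and dendritic cells, stood at 15.00, 15.2, 71.8 and 38.05 CPM. Its ratio at 24 h fell to 1.29 when each cell was thinned to 2000 UMIs before the rule, and was 8.23 among members with a margin of at least 4 UMIs.

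The 8 genes that fell most at 24 h were Mx1, Irf7, Slfn4, Ly6e, RT1-S3, RT1-T24-3, Cd300lb and Hes1. Hes1, a target of Notch, the pathway that directs classical monocytes to the nonclassical fate, went from 65.2 CPM to 28.1, 26.04 and 62.97. It was low at 12 and 24 h and at the control level at 96 h. Cd300lb, an activating receptor of myeloid cells, had 78.3, 54.4, 31.3 and 51.2 CPM. All 3 pancreatitis libraries were below the control for it.

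**Figure D4:**
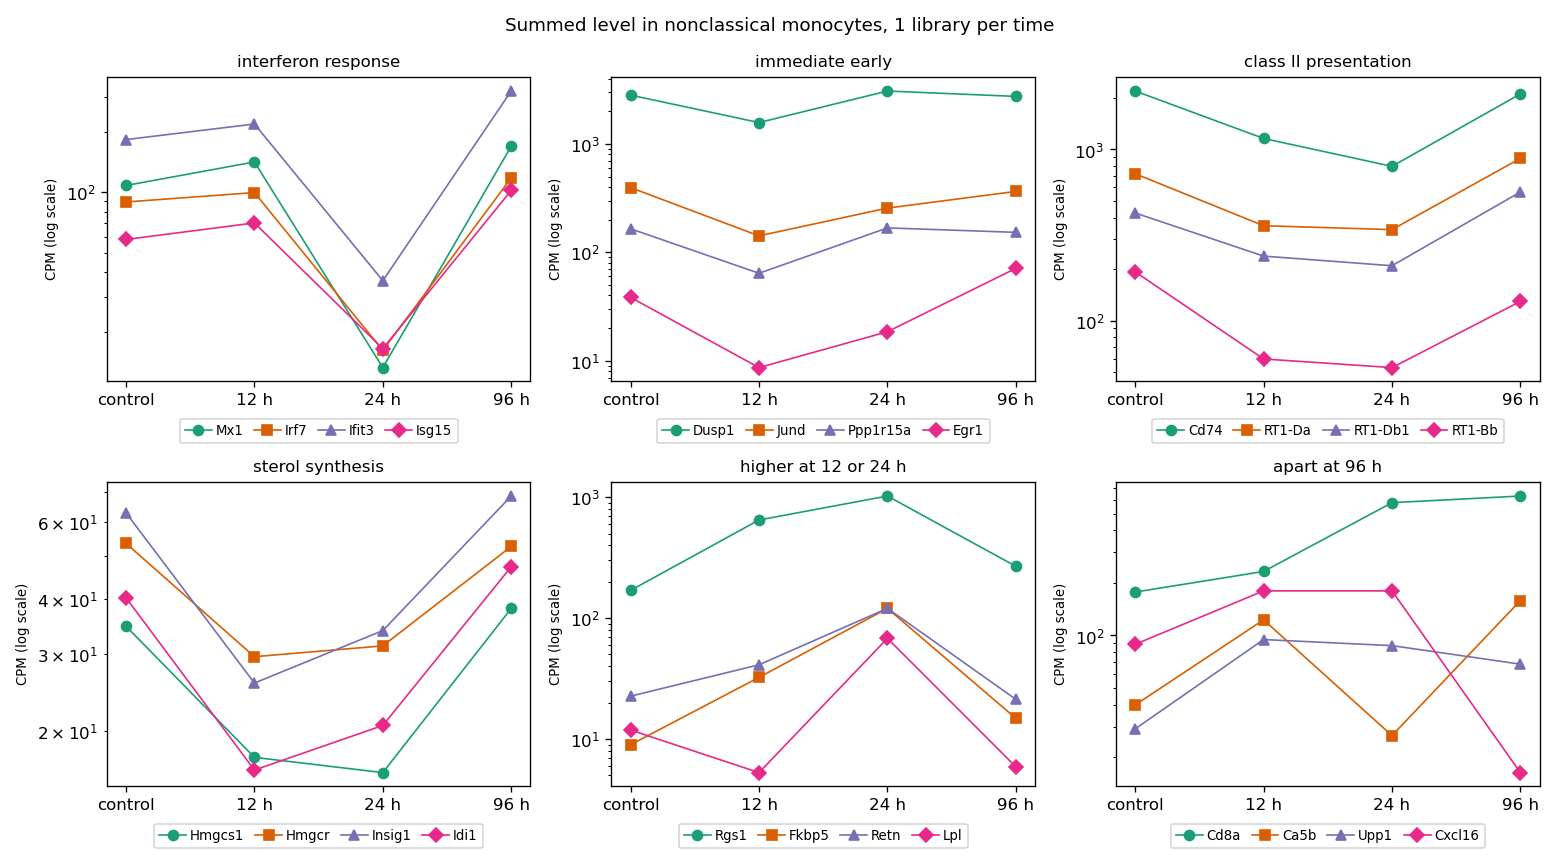
Summed level in nonclassical monocytes, in CPM on a log scale, for 6 groups of 4 genes in the 4 libraries, with lines joining the libraries of a gene and times not drawn to scale. The interferon genes dip at 24 h alone, the class II and sterol genes at 12 and 24 h, and Cxcl16 at 96 h, to 16.4 CPM.

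At 96 h the fewest genes of the 3 times were past 1.5-fold. Their number depends on depth, with 202 higher and 209 lower when cells were thinned to 2000 UMIs. The 8 genes that rose most at 96 h were Ca5b, Cd8a, Upp1, Mrpl43, Dnaja1, Ehd1, Ifit3 and Isg15. Cd8a, which encodes a chain of the coreceptor of cytotoxic T cells, stood at 177, 233, 577 and 630 CPM. The members thus reached 3.55 times the control level (95% interval 3.36 to 3.76) at 96 h, while T cells stood at 592, 660, 497 and 561 CPM and B cells at 38.1 to 49.3 CPM. At equal depth 21.7%, 25.8%, 46.9% and 54.3% of the members carried a Cd8a UMI, against 4.17 to 5.93% of B cells (29.1%, 35.4%, 59.6% and 66.3% of all members). In classical monocytes 7.77%, 19.5%, 23.3% and 16.0% of cells carried one at equal depth (16.9%, 38.6%, 52.0% and 41.1% of all cells). Cd8b, which encodes the partner chain, went from 51.9 CPM to 67.2, 102 and 77.8. Among members with 0 UMIs of the T and NK list the Cd8a ratio at 96 h was 3.62.

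Ca5b, a carbonic anhydrase of mitochondria, had 39.99, 123, 26.7 and 159 CPM. It was higher at 12 and 96 h, and at 24 h stood at 0.667 times the control level (95% interval 0.578 to 0.769). Classical monocytes had 31.2, 99.1, 17.5 and 108 CPM of it. Upp1, which breaks down uridine, stood at 29.1, 94.8, 87.5 and 68.5 CPM. All 3 pancreatitis libraries were above the control for Upp1, in the members and in classical monocytes. Mrpl43, a protein of the mitochondrial ribosome, went from 23.8 CPM to 41.4, 41.4 and 53.5. B cells and T cells showed 47.6 and 43.6 CPM of Mrpl43 at 96 h, from 21.1 and 20.0.

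Heat shock and unfolded protein genes, which fold or refold proteins, were higher in part at 12 and 96 h. Of 18 compared, 4 were higher and 1 lower at 12 h, and 4 higher and 0 lower at 96 h, whereas 0 of 17 were higher and 1 lower at 24 h. The 10 alternatives gave 2 to 4 higher genes at 12 h, and 4 or 5 at 96 h. Dnaja1, a partner of the chaperone Hsp70, had 140, 170, 123 and 283 CPM. Hsph1, which renews that chaperone, stood at 49.5, 54.9, 33.01 and 85.6 CPM. Both were highest at 96 h. Hsp90b1, a chaperone of the endoplasmic reticulum, went from 328 CPM to 507, 244 and 379. Hsp90b1 was highest at 12 h.

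The 8 genes that fell most at 96 h were Cxcl16, Cd22, Camk2d, RT1-A1, Cd300c2, Piezo1, Nuak2 and Susd6. Cxcl16, a membrane-bound chemokine that also takes up oxidised lipoprotein, had 89.05, 180, 180 and 16.4 CPM. It was 2.02 times the control level (95% interval 1.87 to 2.19) at 12 h and 0.184 times the control level (95% interval 0.146 to 0.229) at 96 h. At equal depth 13.2%, 24.1%, 29.4% and 2.70% of the members carried a Cxcl16 UMI, and at most 1.72% of B cells (20.0%, 35.7%, 50.7% and 6.65% of all members). Classical monocytes also had less at 96 h than in the control, 6.08 against 21.6 CPM. Cd22, an inhibitory lectin better known from B cells, stood at 71.5, 57.6, 36.96 and 30.1 CPM. B cells had 63.0, 63.2, 60.1 and 36.0 CPM of it and T cells at most 4.09. Camk2d, a calcium-dependent kinase, went from 141 CPM to 77.8, 87.7 and 77.2. Piezo1, a stretch-gated ion channel, and Susd6 were at 0.603 and 0.655 times the control, and at 0.806 and 0.815 when cells were thinned to 2000 UMIs. Susd6 was also inside the limit under 3 other alternatives, at 0.680 to 0.682.

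Cytokines and chemokines divided by time. Of 17 inflammatory mediators compared, 4 were higher and 6 lower at 12 h, 6 higher and 1 lower at 24 h, and 4 higher and 3 lower at 96 h. Without doublets, and among members with 0 UMIs of the T and NK list, 2 were higher and 3 lower at 96 h. Il1b, the cytokine that drives fever and acute inflammation, had 201, 120, 300 and 212 CPM. Its ratio was 0.599 times the control level (95% interval 0.557 to 0.644) at 12 h and 1.49 times the control level (95% interval 1.42 to 1.57) at 24 h, the latter just inside the limit. Il18, a related cytokine, stood at 10.9, 47.1, 26.3 and 16.6 CPM. Cxcl2, a chemokine for neutrophils, went from 22.5 CPM to 12.6, 61.2 and 18.5. Acod1, the enzyme that makes itaconate, had 1.02, 0.449, 13.9 and 1.14 CPM. Its ratio at 24 h was 13.6 times the control level (95% interval 7.604 to 26.9), and it was close to 1 CPM or below in the other libraries. Ccl6 stood at 568, 736, 1286 and 652 CPM. Cxcl10, an interferon-induced chemokine, went from 18.4 CPM to 1.12, 1.504 and 5.33. In B cells Cxcl10 reached 8.25 CPM at 24 h, above the level of the members. Ccl5 stood at 110, 418, 127 and 288 CPM in the members and higher in B cells, at 560 to 980 CPM. The members were at 1.07, 1.75, 0.990 and 2.21 times the classical monocyte level of Ccl5. The part of free RNA in the Ccl5 levels was not tested.

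Fc receptors and complement genes differed in part at 12 and 24 h. Of 15 genes compared, 4 were higher and 1 lower at 12 h, and 3 higher and 0 lower at 24 h, and of 14 at 96 h 1 was higher and 0 lower. Fcgr3a had 503, 1110, 965 and 624 CPM. It was 2.205 times the control level (95% interval 2.13 to 2.28) at 12 h and 1.92 times the control level (95% interval 1.86 to 1.98) at 24 h. Members with a Fcgr3a UMI at equal depth went from 36.1% to 57.1%, 54.3% and 46.8%, against 0.978 to 2.21% of B cells (45.9%, 66.7%, 65.8% and 59.6% of all members). Classical monocytes had 32.7, 92.9, 35.6 and 7.69 CPM of Fcgr3a. Fcer1g, the signalling chain it uses, stood at 3688, 4091, 4485 and 3718 CPM. Cfp, which stabilises the alternative complement convertase, stood at 420, 693, 531 and 497 CPM. C3, the central complement protein, went from 319 CPM to 182, 366 and 236.

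Most genes for crawling, survival and identity lay within 1.5-fold of the control, as did most of all genes compared. Over all genes 4.31% were higher and 3.41% lower at 12 h, 3.45% and 5.18% at 24 h, and 1.94% and 1.42% at 96 h. Of 27 adhesion and migration genes compared, 3 were higher and 2 lower at 12 h, and of 25, 0 higher and 2 lower at 24 h and 1 higher and 0 lower at 96 h. S1pr5, the receptor that guides nonclassical monocytes out of the bone marrow, had 202, 239, 225 and 212 CPM. Cxcr4, which holds leukocytes in the marrow, stood at 525, 379, 276 and 633 CPM. It was lowest at 24 h, at 0.526 times the control level (95% interval 0.504 to 0.548), while B cells kept 802 to 1016 CPM. Of 22 nonclassical monocyte genes outside the rule, 1 was higher and 4 lower at 12 h, with Nr4a1, Eno3 and Hes1 among the latter. At 24 h 1 was higher and 2 lower, and at 96 h 0 were higher and 1 lower. Pparg, a lipid-sensing nuclear receptor, was the one lower at 96 h, with 37.8, 25.04, 23.3 and 17.9 CPM. Cebpb, the transcription factor that these cells need, went from 6696 CPM to 4475, 5661 and 6891. Of 21 survival and apoptosis genes, 0 were higher and 4 lower at 12 h, and Bcl2a1, which protects monocytes from apoptosis, had 1075, 1116, 1161 and 1183 CPM. None of 26 respiratory chain subunits was past 1.5-fold at any time, and of 19 glycolysis genes 0 were higher at any time and 1 was lower at 24 h.

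Of 19 measured classical monocyte genes outside the rule, 12 were lower in the members than in classical monocytes in each of the 4 libraries. Another 2 were higher in each and 5 were neither. These counts too are a description, without the share over all genes. The 2 higher genes were Cd36 and Ly86. Cd36, a scavenger receptor, was at 2.18, 1.40, 1.94 and 2.40 times the classical level. Ly86, a partner of a Toll-like receptor homologue, was at 1.49, 1.84, 1.70 and 1.93 times. Over time, 5 of 13 were higher and 1 lower at 12 h, 4 of 11 higher and 1 lower at 24 h, and 1 of 10 higher and 0 lower at 96 h. Cd14, the coreceptor for bacterial lipopolysaccharide, stood at 42.2, 61.2, 116 and 54.2 CPM. Classical monocytes had 397, 347, 887 and 475 CPM. Mmp8, a neutrophil collagenase with the largest ratios of the list, reached 11.4 and 13.9 CPM at 12 and 24 h, beside 10.1 and 10.6 CPM in B cells. Ccr1, a chemokine receptor, went from 1.69 CPM to 12.2, 5.07 and 2.47. B cells had 2.05 to 8.46 CPM of Ccr1, and the part of free RNA in its rise was not tested.

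Of 13 chemokine and egress receptors and their regulators 3 were higher and 2 lower at 12 h, of 11 at 24 h 1 was higher and 2 lower, and of 11 at 96 h 2 were higher and 0 lower. Rgs1 was among the higher ones at each time. Of 11 iron and metallothionein genes 0 were higher and 1 lower at 12 h, of 12 at 24 h 3 were higher and 2 lower, and at 96 h 0 of either. Mt1, a metal-binding protein and 1 of these 3, had 151, 155, 247 and 133 CPM. Slc30a1, which exports zinc and was lower at 12 and 24 h, stood at 16.1, 10.7, 9.102 and 18.3 CPM. Of 27 lysosome genes 3 were higher and 1 lower at 12 h, of 25 at 24 h 2 were higher and 2 lower, and of 26 at 96 h 1 was higher and 0 lower. Ctsc, a cathepsin that activates proteases of granules, went from 8.39 CPM to 17.7, 9.97 and 11.8. Of 22 receptors for microbial and danger signals 0 were higher and 2 lower at 12 h, 2 higher and 3 lower at 24 h, and 0 of either at 96 h. Clec4e, a receptor for mycobacterial glycolipid and dead cells, had 10.8, 3.48, 19.2 and 13.5 CPM. It had the smallest ratio of that list at 12 h. Of 21 myeloid transcription factors 2 were higher and 3 lower at 12 h, 0 higher and 2 lower at 24 h, and 0 of either at 96 h. Stat3, which carries signals of the interleukin 6 family, stood at 101, 165, 109 and 101 CPM. Of 13 genes for clearing dead cells 0 were higher and 2 lower at 12 h, and 1 was lower at each of the later times.

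Single members of a library differed from each other in several genes described above. Among the 12 genes with the largest variance over their mean at equal depth were RT1-Da, RT1-Db1, RT1-Ba, Cd74, Hmox1 and Fcgr3a. Hmox1, which breaks down heme, had a variance of 7.51, 5.09, 6.01 and 5.59 times its mean. For RT1-Da the figures were 9.21, 5.11, 12.1 and 16.4, and for Fcgr3a 4.48, 5.45, 5.74 and 3.95. Ccl5 had 7.10, 21.0, 13.3 and 30.3, with levels that were not above those of B cells.

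**Figure D5:**
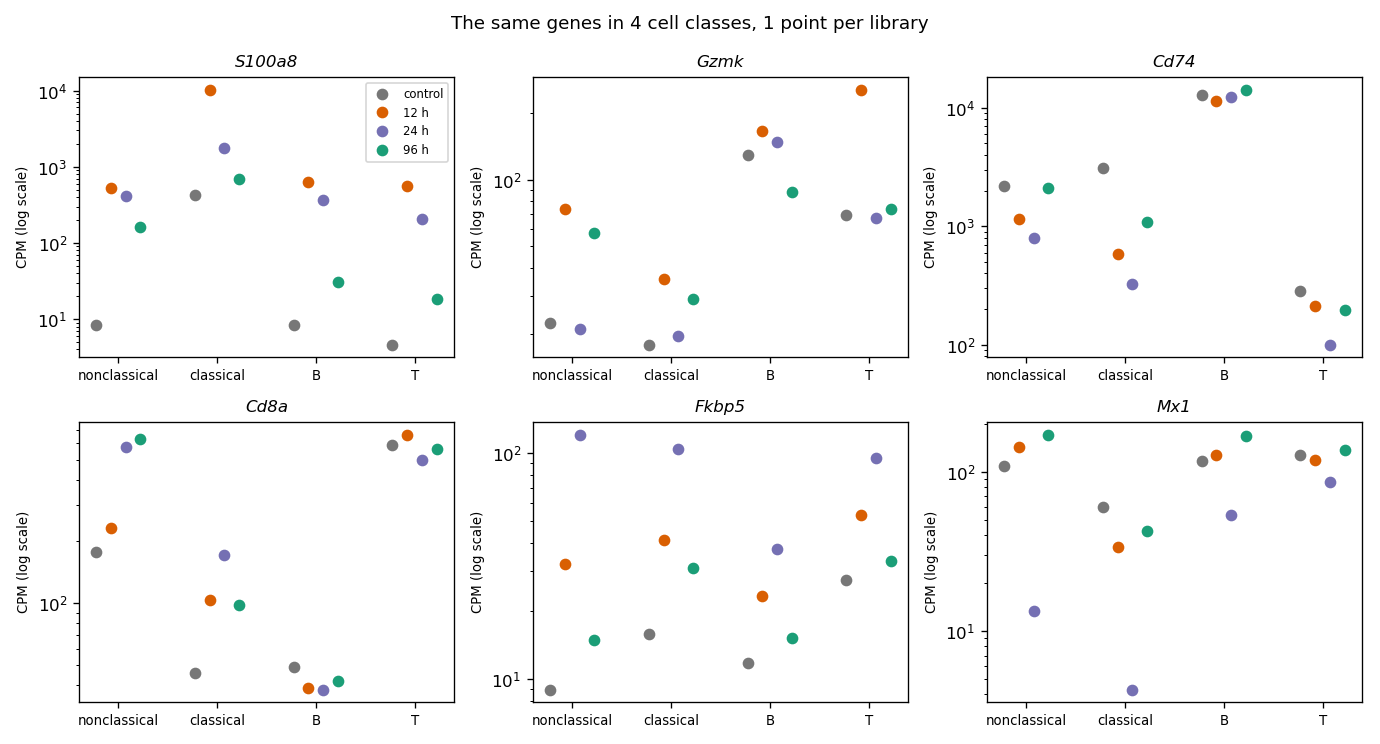
Summed level, in CPM on a log scale, of 6 genes in nonclassical monocytes, classical monocytes, B cells and T cells, with 1 point per library. Gzmk in the nonclassical cells lies below the B cells in each library, Cd8a at 24 and 96 h reaches the T cell level of 497 to 660 CPM, and Fkbp5 is highest at 24 h in each of the 4 classes.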

How the data were processed

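The labels describe 4 libraries of mouse blood mononuclear cells, 1 per time. Cell Ranger, Seurat and the build mm10 are named in the submitters' processing notes, with no version. UMI counts per gene and cell, as whole numbers, fill the deposited matrices. The members, gene lists and rule were chosen with earlier results of these data known. UMI counts of the members were summed per library and divided by their total (CPM). A ratio over the control has an exact conditional binomial 95% interval and a share a Clopper-Pearson one, both for counting error only, and 0 UMIs were set to 3. Named genes were the 8 each way at each time with the most extreme ratio, judged by whichever bound of its interval lies closer to 1, among those that reached 50 CPM in one of the libraries compared and 25% of the highest level in any comparator class, leaving out haemoglobin, antigen receptor, ribosomal protein and mitochondrial genes, rule genes, unnamed gene models and sex-linked markers. The largest and smallest ratio of each list could also be named, and other list members were named after their values were seen. B and T comparator cells needed at least 2 UMIs of their own marker genes (Cd79b or Cd3e, Cd3d and Cd3g). They also needed 0 UMIs of the other's and Lyz2 under 1000 CPM. Neutrophil comparator cells had at least 8% of their UMIs in S100a8 and S100a9. Doublets were marked with Scrublet (scanpy 1.11.5) and kept, and their removal was an alternative. Python 3.11.15, numpy 2.4.6, scipy 1.17.1 and pandas 2.3.3 were used. The calls of higher and lower genes were also run on simulated counts with counting error only. Such counts hold no variation between mice or libraries, so they cannot show how much of it enters the calls. Alternatives covered the rule, depth, scaling and gene filter. The margin of at least 4 UMIs and the members with 0 T and NK UMIs were chosen after seeing the data. Results for a few genes are not reported here.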

Additional observations from a re-analysis of the deposited data

Results flagged for a closer look

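Several genes lay at least 1.5-fold above the control at one time and at least 1.5-fold below it at another. Each time had 1 library, so the difference between times was not tested. Cxcl16 was 2.02 times the control level at 12 h, 2.02 times at 24 h and 0.184 times at 96 h. Lpl was 0.445 times at 12 h, 5.73 times at 24 h and 0.497 times at 96 h. The interferon-induced genes Ifit3, Isg15 and Mx1 were at 0.197, 0.285 and 0.123 times at 24 h, and at 1.75, 1.76 and 1.57 times at 96 h. RT1-T24-3 was at 0.413 times at 24 h and 1.54 times at 96 h. Sirpd was at 0.399 times at 12 h and 1.54 times at 96 h.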

How the results depend on the processing

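Of 540 gene ratios recomputed for 54 named results under 10 alternatives, 496 moved by less than the counting interval, 44 moved further and 0 changed direction. Of 690 list medians, 3 changed sign, all at 96 h. With cells thinned to 2000 UMIs the survival list went to 0.0317 and the class II list to -0.367, and with a margin of at least 4 UMIs, chosen after seeing the data, the class II list went to -0.126. The cause was not tested. The share at 24 h over that of the control was 0.938 with Lyz2 at 10000 CPM or more, 0.789 with thinned cells and 0.682 among cells with the Lyz2 and Csf1r terms, where the ratio at 96 h was 0.690. Thinned cells gave 202 higher and 209 lower genes at 96 h. Median-of-ratios scaling gave 181 higher genes at 12 h. With at least 50 CPM, which leaves fewer genes, 77 were higher and 86 lower at 12 h, 87 and 97 at 24 h, and 32 and 21 at 96 h. With at least 10 UMIs over both libraries the counts were 1232 and 710, 810 and 1194, and 691 and 700. No paired analysis was possible because each time had 1 library. Leaving out a replicate could not be run for the same reason.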
